A study of Mus musculus with 4 samples.

Results

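Albumin and 9 other genes that hepatocytes use to make carrier proteins and apolipoproteins of blood plasma were compared between livers of control mice and of hepatic reductase null mice. The genes are Alb, Ttr, Rbp4, Ahsg, Apoa1, Apoa2, Apob, Apoc3, Apoe and Apoh. They were chosen by name through the probe annotation of the Affymetrix MG_U74Av2 array, on which 9 of the 10 had a probe set, 11 probe sets of 12422 in all. Apoc3 had none in the annotation used here and was not analysed. The study measured total RNA of mouse liver on 4 arrays, 2 labelled control (WT7 and WT8, here control replicates 7 and 8) and 2 labelled null (N7 and N8, here null replicates 7 and 8). The labels state that RNA of 3 animals of a genotype was pooled for an experiment, whereas each control title names a single mouse. It is therefore unclear whether an array holds a pool or 1 animal, and whether the spread of n = 2 is one between pools or between animals. The labels give no strain, age, sex or treatment. In the line known as hepatic reductase null, NADPH-cytochrome P450 oxidoreductase, the electron donor of microsomal P450 enzymes, is deleted in hepatocytes by a Cre recombinase under the albumin promoter. The labels do not describe the alleles, and they do not say whether the controls carried floxed alleles or Cre.

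Hepatocytes make most of the protein of blood plasma. Albumin carries fatty acids, bilirubin and drugs, and transthyretin (Ttr) carries thyroxine and holds retinol-binding protein (Rbp4) in the circulation. Apolipoproteins form the protein shell of lipoproteins, with Apob on the very low density particles that take triglyceride out of the liver and Apoa1 and Apoa2 on high density particles. Their genes are held at high levels by liver-enriched factors such as HNF1, HNF4 and C/EBP, and liver without the reductase is known for steatosis and low plasma lipids.

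By the fitted log2 change, the mRNA signals of Alb, Apoa1, Apoa2 and Apoe were 1.07% to 4.80% higher in null liver, signs that turned under at least 1 setting, whereas the Ttr signal was 35.2% lower and those of Apob, Ahsg and Apoh were 11.8% to 13.4% lower. None of the 9 genes passed an adjusted p of 0.05. In limma 0 genes were higher and 0 lower at that threshold, and at an unadjusted p under 0.05 there were 4 lower (Ttr, Apoh, Apob and Ahsg) and 0 higher. Over all 7241 probe sets tested, 0.304% were higher and 0.0829% lower at the adjusted threshold, and 6.16% were higher and 6.46% lower at an unadjusted p under 0.05. The null signals lay below both control signals for 5 genes, against 23.4% of all probe sets, and above both for Apoe, against 20.4% of all probe sets. The median log2 change (null minus control) of the 9 genes was -0.062, beside -0.0090 for all probe sets tested, and 5 of the 9 changes were below 0, beside 51.1% of all. The genes were chosen with earlier results of these arrays known, so these counts are a description. With 2 arrays against 2, an exact permutation test cannot give a two-sided p under 0.333. The p-values measure the spread between these arrays, which may be partly technical.

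**Figure D1:**
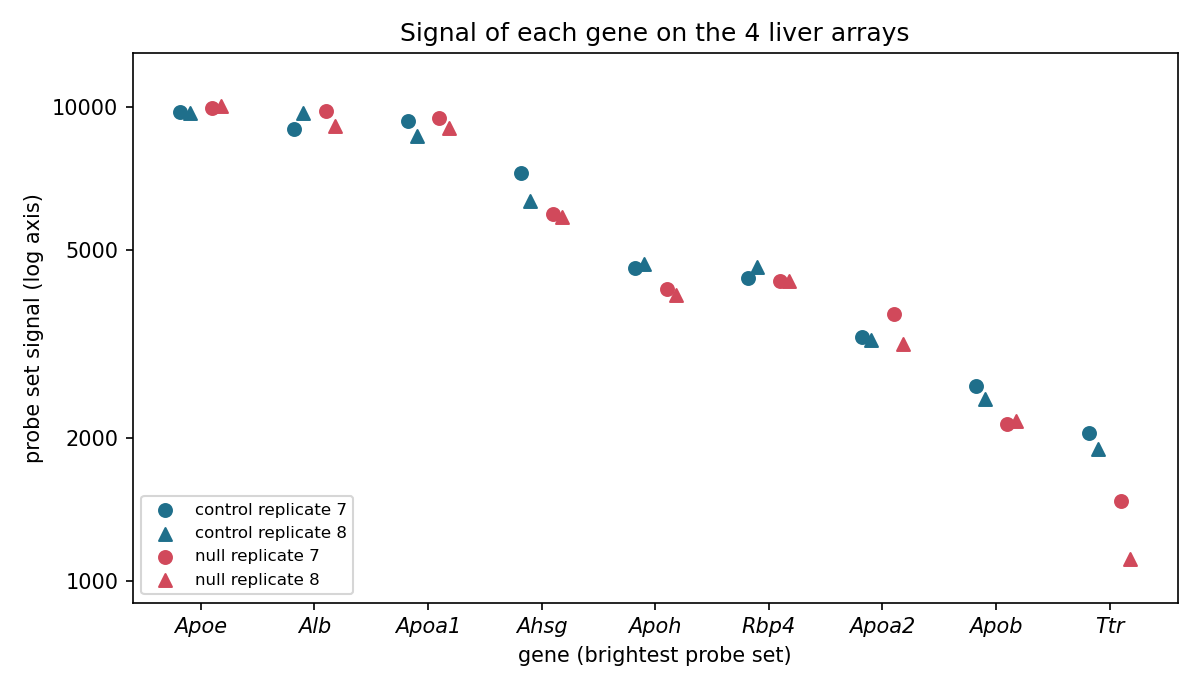
Probe set signal (log axis) of the brightest probe set of each gene on the 2 control and 2 null arrays, 1 point per array. The null points of Ttr, Apob, Ahsg, Apoh and Rbp4 lie below both control points, those of Apoe above both, and those of Alb, Apoa1 and Apoa2 overlap with them.

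Among the carriers, Ttr had the largest difference. Its signal was 2054 and 1900.5 on control replicates 7 and 8, then 1472 and 1114 on null replicates 7 and 8. Both null arrays were below both control arrays, and the null arrays lay further apart from each other (0.40 on the log2 scale) than the control arrays did (0.11). The mean went from 1977 ± 109 to 1293 ± 253 (SD, n = 2 each), a log2 change of -0.63 ± 0.14 (SE), with a 95% interval of the fit from -0.95 to -0.30 (adjusted p = 0.136 in limma). That interval corresponds to a change between -48.4% and -18.6%, before any allowance for the number of probe sets tested. Without null replicate 7 the log2 change was -0.83 and without null replicate 8 it was -0.42, and neither passed.

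Rbp4, the retinol carrier that travels bound to transthyretin, differed much less than its partner. Its signal was 4364 and 4601 in control liver, against 4286 and 4299.9 in null liver, a log2 change of -0.06 ± 0.07 (SE, adjusted p = 0.75, interval -0.22 to 0.09). The gap between the groups was smaller than the gap between the control arrays. Taken as a ratio on each array, which cancels the scaling of the array, log2 of Ttr over Rbp4 was -1.09 and -1.28 in control liver, against -1.54 and -1.95 in null liver. Its mean thus lay 0.56 lower in null liver (log2 difference -0.56), with no overlap (exact permutation p = 0.333, two-sided, the smallest possible). This pair was chosen after the values were seen, and the absolute ratio of different probe sets has no meaning of its own.

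Albumin, the most abundant plasma protein, read 8991 and 9729 in control liver, against 9809 and 9109 in null liver. The arrays of the genotypes interleaved, and the log2 change was 0.015 ± 0.067 (SE, adjusted p = 0.956). The interval ran from -9.56% to 12.9%. The sign of this small value turned with the setting, to -0.054 under quantile normalisation. Ahsg, fetuin-A, a carrier that binds calcium phosphate, read 7245 and 6339 in control liver, against 5940.5 and 5857 in null liver. The null arrays lay close together (0.02 apart on the log2 scale) and below both controls, which were 0.19 apart. Its log2 change was -0.20 ± 0.08 (SE, adjusted p = 0.355), and it depended on the control array used, with -0.10 without control replicate 7 and -0.30 without control replicate 8.

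Among the apolipoproteins, Apob and Apoh were lower on both null arrays than on both control arrays. Apob, the structural protein of very low density lipoprotein, read 2578 and 2415 in control liver, against 2147 and 2174 in null liver. The difference between the genotypes was larger than that between arrays of a genotype, with a log2 change of -0.21 ± 0.08 (SE, adjusted p = 0.34), or -13.4%. Apoh, beta-2-glycoprotein I, which binds anionic phospholipids, read 4567 and 4661 in control liver, against 4122 and 4013 in null liver. Here too the arrays of a genotype lay close, within 0.03 and 0.04 on the log2 scale, and the change was -0.18 ± 0.06 (SE, adjusted p = 0.313).

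The high density apolipoproteins did not differ beyond the spread between arrays. Apoa1, the main protein of high density lipoprotein and activator of Lcat, read 9352 and 8698 in control liver, against 9463 and 9017 in null liver (log2 change 0.03 ± 0.06, SE, adjusted p = 0.866). Apoa2, the second protein of these particles, read 3276 and 3219 in control liver, against 3659 and 3165 in null liver (log2 change 0.07 ± 0.09, SE, adjusted p = 0.799). In both genes the null arrays overlapped the control arrays, and both changes took the other sign without null replicate 7. The intervals ran from -7.65% to 13.6% for Apoa1 and from -9.31% to 21.1% for Apoa2. Apoa2 was read by a probe set of a kind (_f_at) that can bind related transcripts, and its other probe set, a dim one, read 20 and 20.7 in control liver, against 28.6 and 19.0 in null liver.

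Apoe, the ligand by which remnants are cleared through lipoprotein receptors, read 9781 and 9735 in control liver, against 9928 and 10036.6 in null liver. Both null values were above both controls, by a log2 change of 0.033 ± 0.052 (SE, adjusted p = 0.837), and the sign turned to -0.044 under quantile normalisation. Macrophages also make Apoe, and their markers had higher summed signals in null liver (values given with the marker lists). Any part of macrophages in the Apoe signal was not tested. A second Apoe probe set read 8.2 and 1.0 in control liver, against 1.6 and 12.4 in null liver, near or below the floor of 7.1 used here, and was not tested.

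**Figure D2:**
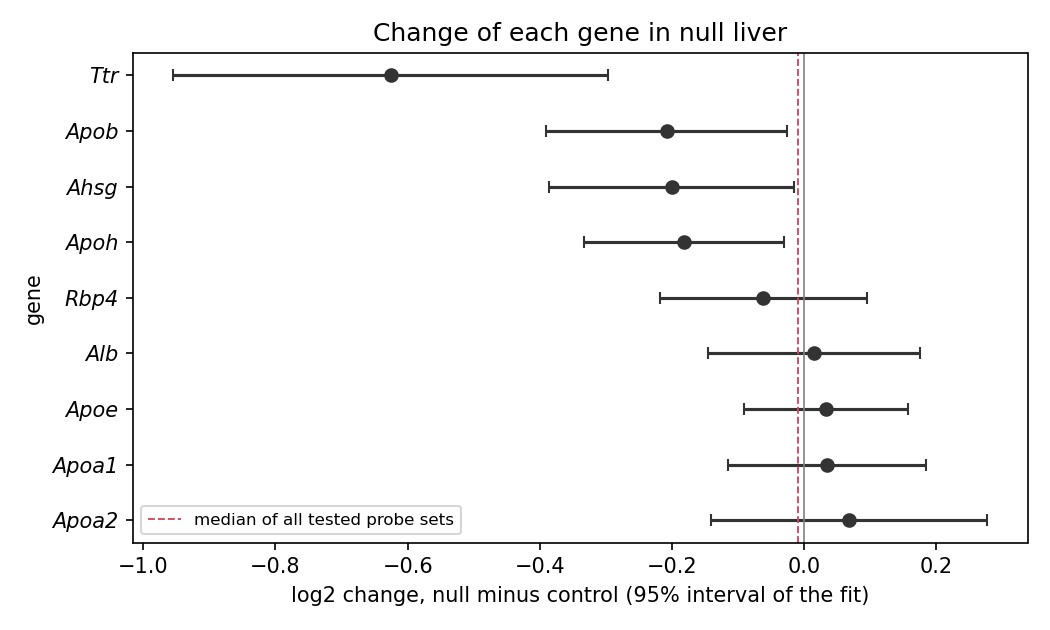
Log2 change (null minus control) of the brightest probe set of each gene, with the 95% interval of the limma fit over 2 arrays per genotype. The intervals of Ttr, Apob, Ahsg and Apoh lie below 0 before adjustment for the number of probe sets, those of the other 5 genes cross 0, and the dashed line marks the median of all tested probe sets at -0.0090.

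Several of these probe sets were among the brightest of the array, where saturation can hide a difference. By mean log2 signal Apoe ranked 3, Alb 7, Apoa1 8 and Ahsg 21 of 12422 probe sets, Rbp4 and Apoh ranked 50 and 51, Apoa2 ranked 86, Apob 148 and Ttr 251. The highest signal on an array was between 10887 and 11759, and the mean signals of the 25 brightest probe sets spanned 1.93-fold. The deposited signals carry no saturation flag, so for Apoe, Alb and Apoa1 a true difference may be understated. Among dimmer probe sets of the 25, that of Mug-ps1 (rank 24), of the murinoglobulin family, read 6679 and 7001 in control liver, against 5357 and 4673 in null liver (log2 change -0.45), and that of the glutathione transferase Gstm1 (rank 11) had a log2 change of 0.37. Both were picked after their values were seen, neither passed (adjusted p = 0.0867 and 0.0759), and they do not bear on the 3 genes at ranks 3, 7 and 8. The probe set at rank 2, an _f_at one without a single gene symbol, read 9242 and 9363 in control liver. In null liver it read 10443 and 10579 (log2 change 0.18, adjusted p = 0.249 in limma). It too was picked after its values were seen, and those at ranks 1 and 4 were at 0.06 and 0.07. The median size of the log2 change was 0.08 among ranks 1 to 25, 0.10 among ranks 26 to 100, 0.13 among ranks 101 to 500 and 0.20 among ranks 2001 to 5000. The median difference between the 2 control arrays also grew over these ranks, from 0.06 to 0.20.

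**Figure D3:**
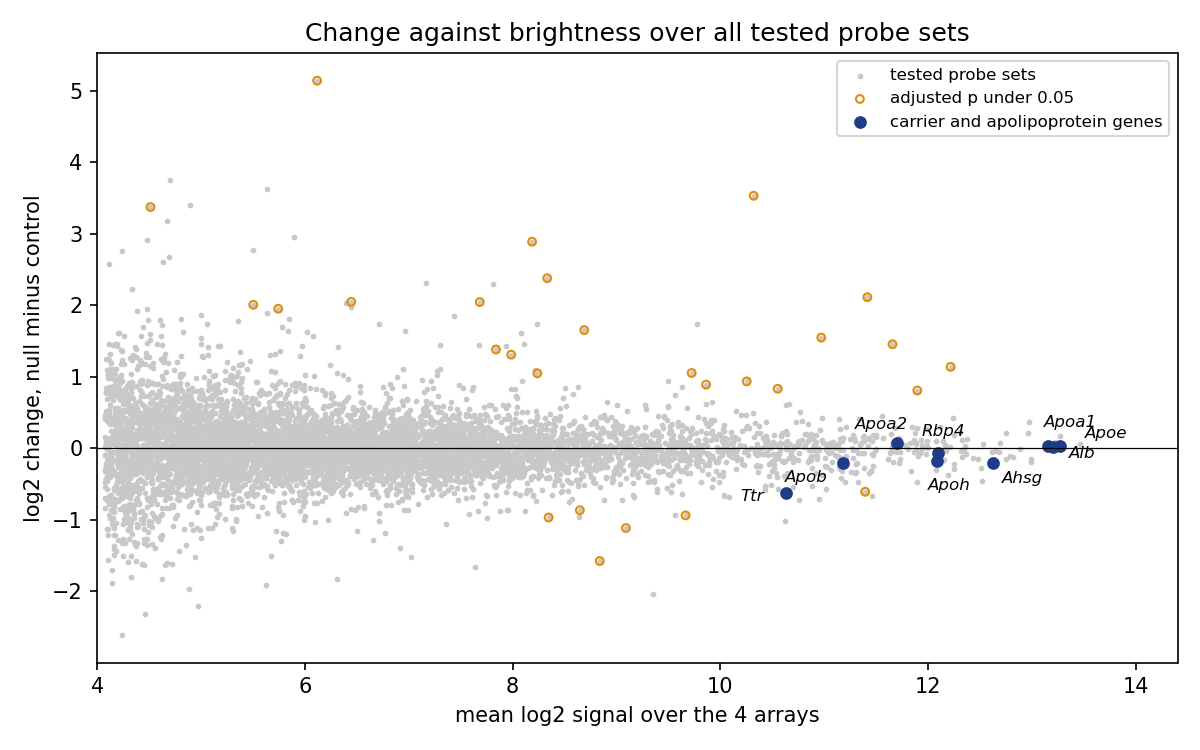
Log2 change (null minus control) against the mean log2 signal over the 4 arrays for the 7241 probe sets tested, with those at an adjusted p under 0.05 ringed in orange and the 9 genes in blue. Alb, Apoa1 and Apoe sit at the right edge of the cloud near 0, and Ttr, the dimmest of the 9, sits lowest.

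The stretch of DNA before the start site is shown for Apoh, Apob and Ahsg, which had lower signals, and for Alb, whose arrays overlapped, because the liver-enriched factors act there. The sequences are those of RefSeq (GRCm38.p6), 5′ to 3′, and 8 of the 10 genes matched an entry of the promoter table. Ttr and Apoc3 had no entry. They end before the first annotated base of the gene. Capitals mark matches on either strand to 5 motifs. The letters of the general promoter motifs were TATAAA for the TATA box, and CCAAT for the binding site of nuclear factor Y. The letters searched for HNF1 were GTTAAT, and those searched for the C/EBP factors were TTNCNNAA. The longest motif searched was that of HNF4, with the letters CAAAGTCCA.
Apoh (chr11:108395047-108395296, + strand): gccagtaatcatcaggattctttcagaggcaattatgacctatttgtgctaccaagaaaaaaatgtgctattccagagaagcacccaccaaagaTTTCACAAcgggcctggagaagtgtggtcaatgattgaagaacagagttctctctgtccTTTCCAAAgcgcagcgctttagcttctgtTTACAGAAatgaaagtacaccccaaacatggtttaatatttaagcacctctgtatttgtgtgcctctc
Apob (chr12:7977427-7977628, + strand): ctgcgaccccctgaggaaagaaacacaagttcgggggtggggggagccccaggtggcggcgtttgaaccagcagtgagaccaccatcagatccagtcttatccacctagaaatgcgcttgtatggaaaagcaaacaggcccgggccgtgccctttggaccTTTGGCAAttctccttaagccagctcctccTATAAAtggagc
Ahsg (chr16:22891765-22892014, + strand): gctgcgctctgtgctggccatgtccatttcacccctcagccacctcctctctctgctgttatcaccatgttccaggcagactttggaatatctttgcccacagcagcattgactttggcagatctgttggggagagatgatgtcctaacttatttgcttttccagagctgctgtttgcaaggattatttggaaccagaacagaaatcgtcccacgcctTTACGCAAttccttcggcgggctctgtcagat
Alb (chr5:90460620-90460869, + strand): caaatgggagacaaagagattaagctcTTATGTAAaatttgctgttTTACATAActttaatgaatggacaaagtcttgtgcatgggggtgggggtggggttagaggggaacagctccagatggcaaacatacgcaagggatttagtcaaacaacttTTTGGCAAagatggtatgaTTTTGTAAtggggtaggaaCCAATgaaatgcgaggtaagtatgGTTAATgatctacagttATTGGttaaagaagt
Every one of the 4 stretches held a match to the C/EBP letters, with 3 in Apoh, 1 in Apob, 1 in Ahsg (read on both strands) and 4 in Alb. In a search of the 250 bases before the start of all 32851 promoters, 36.8% held these letters, so such a match is common. Of the genes with an entry that is not printed, Rbp4 and Apoa2 held such a match in at least 1 entry. Apoa1 and Apoe held none. The HNF1 letters were found in Alb alone of these 4, at -32 to -27 from the start site of the table, and in 6.43% of all promoters. An entry of Apoe, not printed, held them too. The TATA box letters stood in Apob of these 4 (12.4% of all), and CCAAT stood in Alb at 2 places (33.8% of all). None of the 4 held the HNF4 letters in this window, which 0.384% of all promoters did. No motifs of different kinds overlapped in the 4 stretches. These are matches of letters in a short window and were not tested as binding sites.

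Other apolipoproteins went both ways. Of 8 tested, 0 were higher and 0 lower in limma at the adjusted threshold, and their median log2 change was 0.05. The unadjusted p was under 0.05 for 2 higher and 1 lower, beside 6.16% and 6.46% of all probe sets. Apoa4, an apolipoprotein of triglyceride-rich particles, read 631 and 364 in control liver, against 1454 and 1748 in null liver (log2 change 1.73 ± 0.25, SE, adjusted p = 0.0538). Apom, which carries sphingosine-1-phosphate on high density lipoprotein, read 1387 and 1352.5 in control liver, against 961 and 759 in null liver (log2 change -0.68 ± 0.13, SE, adjusted p = 0.0959). For both genes the genotypes did not overlap, as was so for 20.4% (null higher) and 23.4% (null lower) of all probe sets. Apoc2, the activator of lipoprotein lipase, was at 0.31 (adjusted p = 0.253), and Apoa5, Apoc4 and Apof were at 0.13, -0.12 and -0.13.

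Of 11 other plasma carriers 0 passed in either direction in limma, and their median was -0.02. The unadjusted p was under 0.05 for 1 higher (Hp) and 2 lower (Itih3 and Itih1), beside 6.16% and 6.46% of all probe sets. Haptoglobin (Hp), which binds free haemoglobin, read 7280 and 7543 in control liver, against 8338 and 8917 in null liver (log2 change 0.22). The inter-alpha-inhibitor heavy chains Itih3 and Itih1 were at -0.32 and -0.47, hemopexin (Hpx), the haem carrier, at 0.13, Ambp at -0.12 and the corticosteroid carrier Serpina6 at 0.20. Plasma carriers thus lay on both sides of 0, with 6 below and 5 above.

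Genes that assemble, remodel and take up lipoproteins gave 0 higher and 0 lower of 12 tested in limma, with a median of 0.05. The unadjusted p was under 0.05 for 1 higher and 1 lower, beside 6.16% and 6.46% of all probe sets. Sar1b, a GTPase of the vesicles that carry nascent lipoproteins from the endoplasmic reticulum, was at 0.45 (adjusted p = 0.135). Mttp, which loads lipid onto Apob, read 70.7 and 64.5 in control liver, against 82.0 and 108.8 in null liver (log2 change 0.48, adjusted p = 0.41), the opposite sign to Apob. Lcat, which esterifies the cholesterol of high density lipoprotein, was at -0.25 (adjusted p = 0.329), Lpl at 0.39, Angptl4 at 0.41 and the receptor Lrp1 at -0.16.

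Of 8 retinoid genes, taken up because Rbp4 and Ttr carry retinol, 0 passed in limma, and the median was 0.16. The unadjusted p was under 0.05 for 3 higher and 1 lower, beside 6.16% and 6.46% of all probe sets. Aldh1a1, which makes retinoic acid, read 4016 and 4358 in control liver, against 5296 and 5904 in null liver (log2 change 0.42, adjusted p = 0.0997). Cyp26a1, the P450 that degrades retinoic acid, read 28.5 and 28.6 in control liver, against 64.4 and 51.7 in null liver (log2 change 1.02, adjusted p = 0.175). Rdh16 and Rxra were at 0.57 and 0.37, and the alcohol dehydrogenases Adh4 and Adh1 at -0.47 and -0.06.

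Transcription factors of the liver were mostly below 0. Of 15 tested, 12 had a negative change, beside 51.1% of all probe sets, and 0 passed in limma. Their median log2 change was -0.32. The unadjusted p was under 0.05 for 1 higher and 3 lower, beside 6.16% and 6.46% of all probe sets. Cebpa, the C/EBP factor of resting hepatocytes, read 3179 and 3065 in control liver, against 2538 and 2474 in null liver (log2 change -0.32 ± 0.07, SE, adjusted p = 0.141). Cebpd, a C/EBP factor of the acute phase, read 66.6 and 51.1 in control liver, against 113.8 and 87.4 in null liver (log2 change 0.77, adjusted p = 0.248). Cebpb and Hnf4a were at 0.21 and 0.16, and for both the arrays of the genotypes overlapped. Nr5a2, Nr2f2, Foxa1 and Onecut1 were at -0.61, -0.66, -0.64 and -0.35 (adjusted p = 0.268 to 0.447 in limma). For each the null arrays lay below both controls, beside 23.4% of all probe sets.

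Most hepatocyte markers outside the 10 genes also had lower signals in null liver. All 10 with a probe set were tested, and 8 of them had a negative change, beside 51.1% of all probe sets. The median was -0.17 and 0 passed in limma. At an unadjusted p under 0.05 there were 0 higher and 4 lower, beside 6.16% and 6.46% of all probe sets. Tdo2, which opens tryptophan breakdown, was at -0.38 (adjusted p = 0.0759), the fibrinogen chain Fgb at -0.38, Fah at -0.25, prothrombin (F2) at -0.22, Tat at -0.20 and Arg1 at -0.15. The remaining markers, Cps1, Serpinc1, Hpd and Ass1, were at -0.04, -0.03, 0.17 and 0.28. The summed signal of the 10 markers was 28090.5 and 28169 in control liver, against 25436 and 24112 in null liver. In bulk tissue, fewer hepatocytes and less of these mRNAs per hepatocyte cannot be told apart.

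Markers of macrophages and stellate cells had higher summed signals in null liver. The summed signal of 13 macrophage markers was 2649 to 2674 in control liver and 3348 to 3609 in null liver, and that of 9 stellate cell and fibroblast markers was 1203 to 1264 against 1543 to 1839. Of the 12 macrophage markers tested, 1 passed as higher in limma (Mpeg1, adjusted p = 0.021). A positive change was seen in 11, whereas 51.1% of all probe sets had a negative one. At an unadjusted p under 0.05 there were 5 higher and 0 lower, beside 6.16% and 6.46% of all probe sets. Clec4f, Csf1r and Adgre1 were at -0.01, 0.11 and 0.14. Of the 9 stellate markers 0 passed in limma, with 4 higher and 0 lower at an unadjusted p under 0.05. Dcn made up most of the stellate sum, with 838 and 844 in control liver, against 1029 and 1183.5 in null liver. Des, Acta2 and Pdgfrb were at 0.38, 0.29 and -0.37. Positive changes were seen in 8 of the 9, whereas 51.1% of all probe sets had a negative one. No marker of either list was at or below the floor on all 4 arrays. Endothelial markers summed to 1027 to 1037 in control and 1125 to 1221 in null liver. Of the 7 tested, however, 4 had a negative change, and their median log2 change was -0.01. The bright marker Eng read 618.5 and 629.1 in control liver, against 762.7 and 704.9 in null liver. Cholangiocyte markers summed to 17.3 to 37.7 in control and 24.3 to 50.2 in null liver, with none bright enough to be tested. Lymphocyte and neutrophil markers summed to at most 250.1 and 140.1 on any array. Pancreatic acinar markers summed to 2982 on null replicate 7, against 238.5 to 386 on the other arrays. The part of these cells in the values of the carrier genes was not tested. Without null replicate 7, the changes of Ttr, Apob, Ahsg and Apoh were -0.83, -0.20, -0.21 and -0.20.

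**Figure D4:**
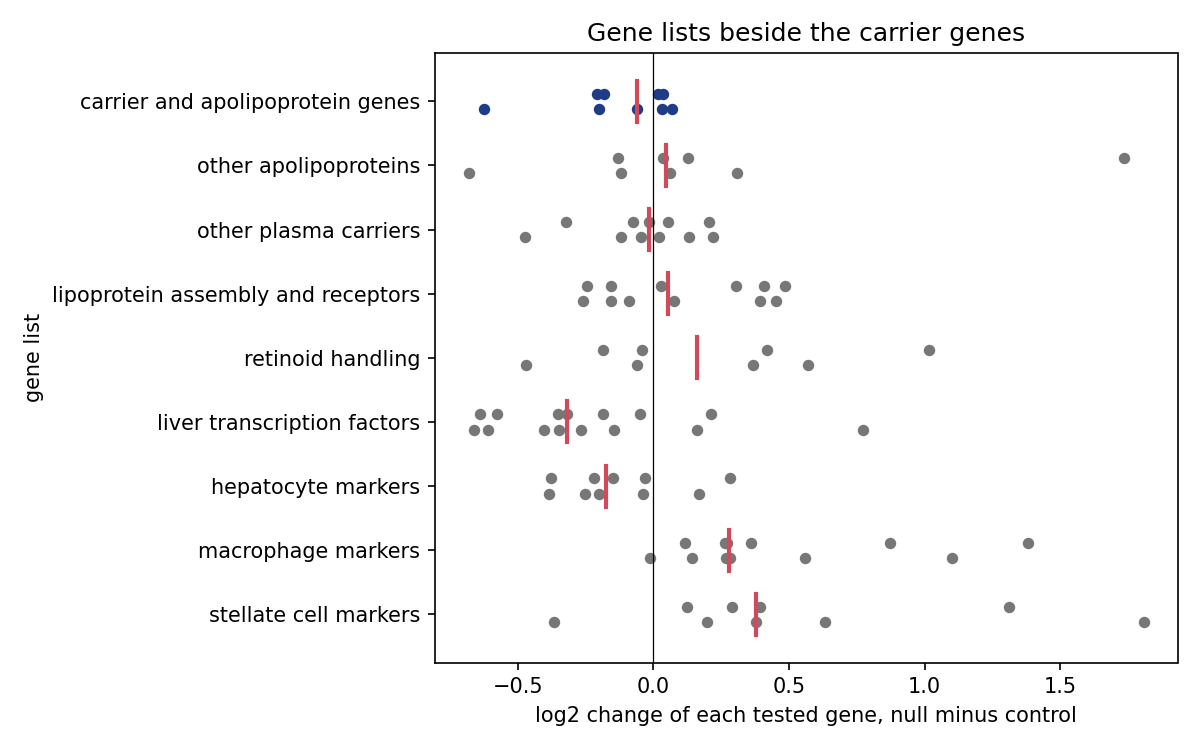
Log2 change (null minus control) of each tested gene of the carrier and apolipoprotein set (blue) and of 8 other lists (grey), with the median of each list as a red bar. The carrier genes spread from -0.63 to 0.07, the transcription factors and hepatocyte markers have medians of -0.32 and -0.17, and the macrophage and stellate cell markers medians of 0.28 and 0.38.

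The genes whose pattern over the 4 arrays was most like that of Ttr and of Apoh, the pair of smallest p among the 9, were found by the Euclidean distance between log2 signals centred on each gene's mean, over 5509 other genes. For Ttr they were Cyhr1 (distance 0.06), Kcmf1 (0.07) and Slc27a5 (0.07). Slc27a5, a bile acid and fatty acid CoA ligase of hepatocytes, read 1904 and 1771 in control liver, against 1456 and 1054 in null liver, the same order as Ttr. For Apoh they were Kcnq1 (0.01), Pja1 (0.02) and Daxx (0.02). The Kcnq1 probe set was dim, at 30.1 and 30.9 in control liver, against 27.2 and 26.6 in null liver. With 4 arrays the distance is a description only.

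Over 15 other settings the log2 change of Ttr lay between -0.83 and -0.42, that of Apoh between -0.23 and -0.16, that of Apob between -0.25 and -0.16 and that of Ahsg between -0.30 and -0.10. None of the 9 genes passed under any of these settings. The smallest adjusted p of Ttr was 0.0639, without null replicate 7, and its largest was 0.66, with the floor at the 50th percentile. Quantile normalisation put 8 of the 9 changes below 0, against 5 of 9 as reported, with Apoe, Alb and Apoa1 at -0.044, -0.054 and -0.036.

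**Figure D5:**
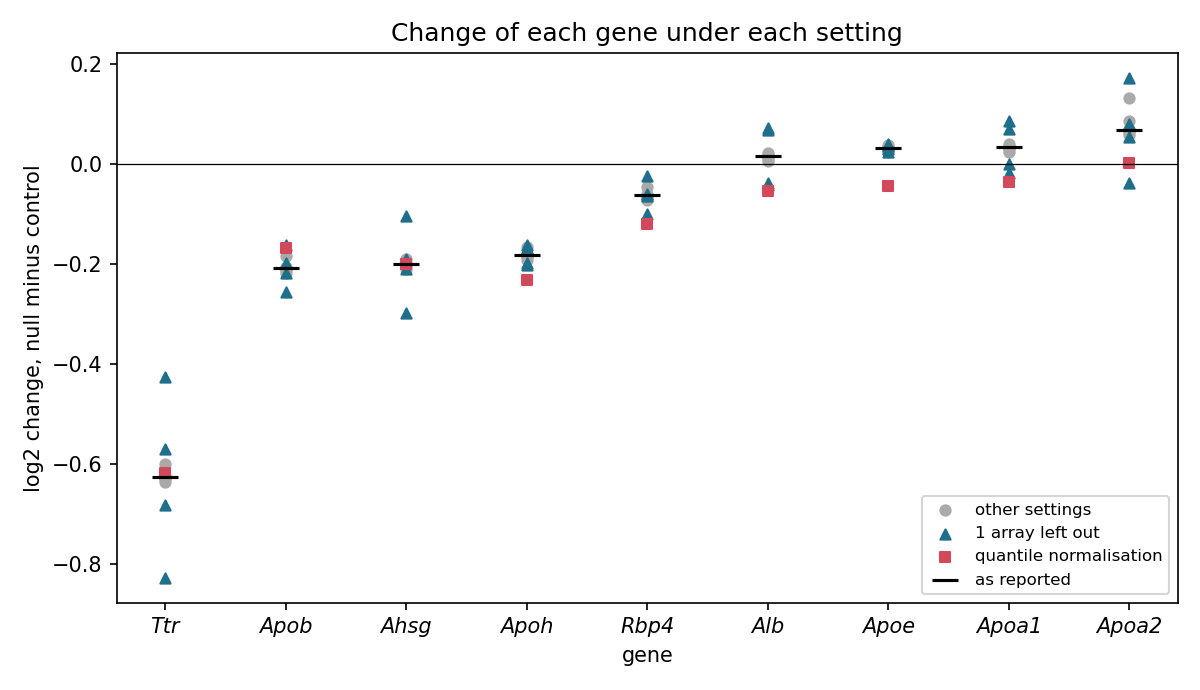
Log2 change (null minus control) of each gene as reported (black bars), with 1 array left out (triangles), under quantile normalisation (squares) and under the other settings (grey circles). Ttr, Apob, Ahsg, Apoh and Rbp4 stay below 0 throughout, while Alb, Apoe, Apoa1 and Apoa2 cross 0 under at least 1 setting.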

How the data were processed

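Total RNA of mouse liver was measured on 4 MG_U74Av2 arrays. The deposited values are linear signal intensities, 1 per probe set, which the authors made with GCOS software and scaled by total fluorescence of the chip, per the labels. The version of GCOS and its target value are not stated there. Each array had a trimmed mean of 100.1 and a median between 26.2 and 28.4. The number of arrays limits the precision.

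A floor of 7.1, the 25th percentile of the deposited values, was set, and log2 was taken with no further normalisation. The 66 control probe sets were left out. The 7241 probe sets with a mean log2 signal above that of 16.8 (the 40th percentile) were tested with genotype as the single term in limma 3.58.1 under R 4.3.3, using moderated variances that follow signal strength. The prior of that fit held 4.78 degrees of freedom, and the arrays themselves held 2. Tests were two-sided, with Benjamini-Hochberg adjustment across all 7241. Names came from the probe table of the platform, brought up to date by gene identifier with the RefSeq table of GRCm38.p6, which left 10833 probe sets with 1 symbol. A gene is given by its brightest tested probe set. In the further lists, up to 6 tested genes of smallest p were named. For the liver transcription factors and the hepatocyte, macrophage, endothelial and stellate cell markers, further genes were named after the values were seen. The members and lists were chosen with earlier results of these data known. The settings varied were the floor, the filter, the normalisation, the variance model, the choice of probe set, a replicate block and leaving out each array. The steps were tested on simulated data.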

Additional observations from a re-analysis of the deposited data

How the results depend on the processing

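The counts of carrier and apolipoprotein genes past the threshold in limma, 0 higher and 0 lower, did not change under any of 15 settings. Over all probe sets, 22 were higher and 6 lower, and these counts moved: to 0 higher and 1 lower with a floor at the 50th percentile, to 0 and 0 without the filter on dim probe sets, and to 0 and 0 without an intensity trend. The lower count was 15 with the filter at the 60th percentile, 12 under quantile normalisation and 16 with arrays centred on the brightest 5% of probe sets. With 1 array left out, 12 to 16 were higher and 0 to 4 lower. The median log2 change of the 9 genes, -0.062, was -0.12 under quantile normalisation and -0.10 to -0.024 with 1 array left out (lowest without control replicate 7, highest without control replicate 8). Signs turned only for values near 0. Under quantile normalisation Apoe was at -0.044, Alb at -0.054 and Apoa1 at -0.036. With 1 array left out Alb lay between -0.042 (without control replicate 7) and 0.072 (without control replicate 8), with -0.038 without null replicate 7. Apoa1 lay between -0.018 (without control replicate 8) and 0.087 (without control replicate 7), with -0.00036 without null replicate 7. Apoa2 lay between -0.037 (without null replicate 7) and 0.17 (without null replicate 8). The cause of these moves was not tested. In a fit with 1 array left out, the lone array is assumed to vary like the pair of the other genotype. The samples share the numbers 7 and 8, but the labels do not say what a number marks, and the differences between replicates 7 and 8 of the genotypes did not go together (r = -0.03 over 7241 probe sets). With the replicate block 37 probe sets were higher and 15 lower over all, 0 of the 9 genes passed, and Ttr had an adjusted p of 0.0769. Signals near the top of the scale limit what can be read for Apoe, Alb and Apoa1.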

Other observations

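Red cell markers, a group outside the comparisons above, had lower signals in null liver. Of 5 listed, 2 were tested, and neither was past the threshold. Both had the null arrays below both controls, beside 23.4% of all probe sets. Hba-a1, a haemoglobin chain, read 6613 and 6230.2 in control liver, against 5398 and 5233 in null liver, a log2 change of -0.27 (adjusted p = 0.156). Alas2, the first enzyme of haem synthesis in red cell precursors, read 990 and 985 in control liver, against 703 and 570 in null liver, a log2 change of -0.64 (adjusted p = 0.0997). Fat cell markers summed to 157 to 166 on the control arrays and 192 to 198 on the null arrays, and 0 of 3 tested passed in limma, with 0 at an unadjusted p under 0.05 in either direction.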
